A study of Mus musculus with 5 samples.

Results

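Interferon-stimulated genes were followed in mouse hepatobiliary organoids, epithelial cultures grown from primary wild-type liver stem/progenitor cells, with and without liver endothelial cells. The genes were 41 symbols of the interferon response given as a list, of 52029 genes in the table shared by 4 libraries. For 40 of them the listed symbol stood in that table, and Ddx58, which it carries as Rigi, was found through its Ensembl identifier. All 41 also had a count in the separate table of the fifth library.

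The organoids alone were at passage 1 (2 libraries, called M11 and M12 in the table) and the co-cultures with liver endothelial cells at passage 8 (3 libraries: M9, M10 and the third in a table of its own), all at day 10, in medium with EGF, heparin, ECGS and the kinase inhibitor Y-27632. Passage and co-culture changed together, so their effects cannot be told apart in any difference given here. The M numbers match no single sample of a group, and nothing in the labels says that libraries of a group came from separate cultures, so a p-value reflects the scatter among these libraries alone and that scatter may be technical.

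Interferons are secreted proteins that warn cells of viral infection. Type I and type III interferons act through the kinases JAK1 and TYK2 on STAT2, which works with IRF9 in a complex that binds the interferon-stimulated response element in the promoters of target genes. Interferon gamma acts on a second element, the gamma-activated sequence. The targets code for sensors of foreign nucleic acid, enzymes that degrade or modify it, GTPases that act on invading particles, and the ubiquitin-like protein ISG15. In bulk RNA, fewer cells of a type and less RNA per cell cannot be told apart.

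The libraries held 26466739 (M11), 29195328 (M12), 33881617 (M9), 35878241 (M10) and 58853737 (the third co-culture library) counts. The epithelial label held: 10 biliary and progenitor markers, Epcam and Krt19 among them, summed to 12200 to 27800 CPM, the counts after scaling for depth, in the 5 libraries, with all 10 detected in each. Endothelial RNA was scarce in every library. The 13 endothelial markers summed to 9.07 (M11), 8.73 (M12), 10.8 (M9) and 10.4 CPM (M10) and to 6.61 CPM in the third co-culture library. In the order M11, M12, M9, M10, the defining gene Pecam1 had 1, 2, 2 and 2 counts, Cdh5 had 3, 2, 6 and 5 and Stab2 had 0, 0, 2 and 5, while Clec4g was at 0 in these 4. In the third library Pecam1 had 10 counts (0.167 CPM) and Cdh5 had 19 (0.317 CPM), the highest of the 5 libraries for both, and Stab2 had 0. Most of each sum was Egfl7, at 6.68 (M11), 7.27 (M12), 9.26 (M9), 9.23 (M10) and 5.30 CPM (the third library), so the sum says little of the more specific markers. Markers of lymphocytes and natural killer cells, the usual sources of interferon gamma, summed to at most 0.103 CPM in any library.

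Promoters of several members hold the letters to which the STAT and IRF complex binds, and a few are printed to show what the members share beside their levels. RefSeq windows from 250 bases before to 50 bases after the gene start (GRCm38.p6) were found for 32 of the 41 members. The core of the response element was searched on both strands as GAAA, any 2 bases and GAAA. It was in a window of 17 of these 32 (53.1%), against 1079 of all 27025 genes with a RefSeq window (3.99%), expressed here or not. The gamma-activated sequence, searched as TTC, any 3 bases and GAA (its own reverse complement), was in 9 of 32 (28.1%) against 2582 of 27025 (9.55%). A match is a description of the letters, not a measured binding site. Each line gives 30 bases of the gene's strand, 5′ to 3′, with the core or overlapping cores in capitals (TTTC, any 2 bases and TTTC is the core read on the other strand).
Bst2: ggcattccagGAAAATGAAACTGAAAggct
Eif2ak2: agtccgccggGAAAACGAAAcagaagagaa
Ifitm3: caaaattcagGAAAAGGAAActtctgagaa
Ifitm3: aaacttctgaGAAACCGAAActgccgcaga
Stat2: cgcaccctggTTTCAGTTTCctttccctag
Ifit3: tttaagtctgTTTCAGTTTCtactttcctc
Ifit3b: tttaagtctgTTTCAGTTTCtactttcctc
Ddx58: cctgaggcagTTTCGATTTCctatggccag
Isg15: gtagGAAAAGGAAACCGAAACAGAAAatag
Cxcl10: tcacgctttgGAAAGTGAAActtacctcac
The genes stand in order of their level per length in organoids alone, most abundant first, except that Ifit3b is set beside its near copy Ifit3 and that Cxcl10 was added, after its values were seen, as the member that differed most between M9 and M10.

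The Bst2 stretch lies at chr8:71537583-71537612 on the minus strand, and its first core starts 130 bases before the gene start. The Eif2ak2 stretch is chr17:78882535-78882564 (minus strand) and its core starts at base 19 of the gene. In Ifitm3 the cores start at base 3 and base 20 of the gene, in chr7:141010723-141010752 and chr7:141010706-141010735 (minus strand). The Stat2 stretch is chr10:128270266-128270295 (plus strand), that of Ddx58 chr4:40239804-40239833 and that of Cxcl10 chr5:92349083-92349112 (both minus strand). The stretches of Ifit3, chr19:34583397-34583426, and Ifit3b, chr19:34607793-34607822 (both plus strand), are letter for letter the same. That of Isg15 is chr4:156200871-156200900 (minus strand), where 3 cores overlap within the capitals. Among the members with a window and without the core were Irf1, Irf7, Irf9, Ifit2, Samd9l, Isg20 and Ifi44, which says only that these letters are not in these windows.

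Levels per length were compared within organoids alone, as CPM (scaled by TMM, which corrects for differences in library make-up) per kilobase of all annotated exons of a gene. Bst2, a membrane tether that holds budding virus, was highest at 35.4 and 43.0 CPM per kilobase in M11 and M12. Trim25, the ubiquitin ligase that activates RIG-I, followed at 20.9 in both, and these levels did not overlap. Ifi35, an interferon-induced leucine zipper protein, stood at 11.5 and 12.9 CPM per kilobase, Irf1, a transcription factor of the interferon gamma response, at 9.24 and 11.9, and Eif2ak2, the RNA-activated kinase PKR, at 9.46 and 10.6. Samd9l, an antiviral and growth-restraining factor, had 9.81 and 8.44 CPM per kilobase, and Ifitm3, which blocks virus entry at endosomes, had 8.02 and 9.10. Neighbours in this order from Ifi35 to Ifitm3 overlapped and were not separated. The usual readouts of a strong interferon response were low beside these, with a mean per kilobase of 2.71 CPM for Isg15, 0.837 for Ifit1, 0.477 for Rsad2, 0.103 for Mx1 and 0.0597 for Oas2.

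In M9 and M10 against M11 and M12, Samd9l rose and Ifitm3 and Ifit2 fell. Of the 41 members 39 passed the low-count filter and were tested by edgeR's quasi-likelihood fit, with p-values adjusted after Benjamini and Hochberg over all 15899 genes tested. The 1 member that rose stands beside 0.994% of all tested genes called higher, and the 2 that fell beside 1.25% called lower (2.24% called in either direction). The remaining 36 did not pass at an adjusted p of 0.05. At an unadjusted p under 0.05 there were 2 higher beside 8.42% of all tested genes and 7 lower beside 9.06%. The levels of the groups did not overlap for 3 members higher in co-culture, beside 24.3% of tested genes, and for 20 lower, beside 25.1%; the other 16 overlapped. Fold changes were negative for 30 of the 39 and positive for 9, with a median of -0.44 on the log2 scale, where the median of all tested genes was 0.0. The median leaned on M9 and M10 unequally: it was -0.13 without M10 and -1.26 without M9.

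Samd9l (ENSMUSG00000047735, minus strand of chromosome 6 from 3372257 to 3399572 in GRCm38) was at 53.2 CPM in M11 and 45.8 in M12, and at 148 in M9 and 160 in M10. The groups did not overlap, and within each group the libraries lay close together. It rose from 49.5 ± 5.27 to 154 ± 8.96 CPM (SD, n = 2 each); edgeR put the log2 fold change at 1.64 ± 0.16 (SE; adjusted p = 0.0167). The third co-culture library, at 118 CPM, was also above both libraries of organoids alone.

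Ifitm3 (ENSMUSG00000025492, minus strand of chromosome 7 from 141009586 to 141010770) had 148 (M11) and 180 (M12) counts beside 17 (M9) and 9 (M10). On the scaled level it fell from 5.80 ± 0.522 to 0.381 ± 0.175 CPM (SD, n = 2 each); edgeR put the log2 fold change at -3.92 ± 0.51 (SE; adjusted p = 0.028). In the third co-culture library it had 16 counts in the deepest library of the series, 0.267 CPM, so it was low in all 3 co-cultures and higher in both libraries alone. Ifitm2, a relative on the same chromosome that is no member, did not pass, with 80.6 and 90.1 CPM in the organoids alone beside 101 (M9) and 95.4 (M10); its estimated counts were not whole in 3 of the 4 libraries.

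Ifit2 (ENSMUSG00000045932, plus strand of chromosome 19 from 34550694 to 34576419), an RNA-binding inhibitor of viral translation, had 172 (M11) and 131 (M12) counts beside 30 (M9) and 18 (M10). It fell from 5.40 ± 1.29 to 0.703 ± 0.266 CPM (SD, n = 2 each); edgeR put the log2 fold change at -2.94 ± 0.49 (SE; adjusted p = 0.0483), just within the threshold. Limma-voom gave the same direction with an adjusted p of 0.0527, and called Samd9l higher and Ifitm3 lower, beside 0.642% and 1.15% of all genes. The third co-culture library had 2.50 CPM, below both libraries of organoids alone but above M9 and M10.

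The calls of these 3 genes rested on few libraries. Their directions were kept in all 12 alternative fits, but none was called by edgeR without M11 (adjusted p from 0.0815 to 0.262), without M12 (0.164 to 0.238) or with all 5 libraries in the fit (0.154 to 0.502). Without M12 edgeR called 0 genes in the whole table, with 1438 at an unadjusted p under 0.05, and among the members 2 higher and 3 lower at that level.

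Just outside the threshold stood Ifi44, a gene induced by type I interferon, with 24 (M11) and 35 (M12) counts beside 2 (M9) and 3 (M10) (log2 fold change -3.77 ± 0.66, SE; adjusted p = 0.0541, edgeR). The groups did not overlap, and the third co-culture library, with 29 counts and 0.483 CPM, lay between the 0.881 and 1.20 CPM of the organoids alone and the 0.0594 (M9) and 0.0857 CPM (M10) of the co-cultures. Isg20, an exonuclease that degrades RNA, was at 6.13 (M11) and 8.33 CPM (M12) beside 13.7 (M9) and 26.6 CPM (M10) (1.48 ± 0.39; adjusted p = 0.131, edgeR). In the third co-culture library Isg20, at 6.11 CPM, lay just below both libraries alone. DESeq2 called these 2 genes and Oas1a beside the 3 above, and called 4.14% of its genes higher and 4.46% lower.

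**Figure D1:**
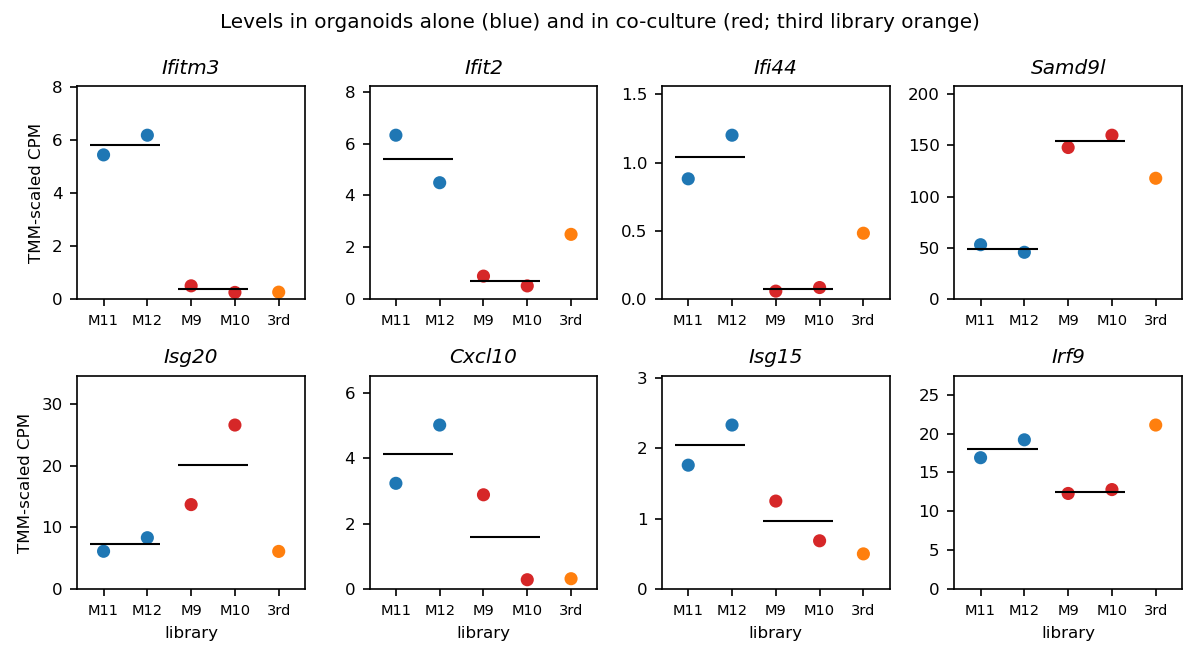
TMM-scaled CPM (y axis, linear from 0) of 8 members in each library (x axis), with organoids alone in blue, M9 and M10 in red and the third co-culture library in orange; black lines are the means of the 2 libraries of a group. Ifitm3 sits at 5.43 and 6.17 CPM alone and at most 0.505 CPM in the co-cultures, whereas Isg20 and Cxcl10 differ widely between co-culture libraries.

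Of the 4 transcription factors 0 passed by edgeR, DESeq2 or limma-voom, and 0 had an unadjusted p under 0.05. Irf9, the DNA-binding partner of the STATs, was at 16.9 and 19.2 CPM alone beside 12.3 (M9) and 12.8 CPM (M10), without overlap (-0.52 ± 0.22; adjusted p = 0.299, edgeR). It was at 21.1 CPM in the third co-culture library, above all 4 others. Stat2 was nearly level over the series, at 29.2 and 27.6 CPM alone, 24.6 (M9) and 27.7 CPM (M10) in co-culture and 35.3 CPM in the third library. Irf7, which amplifies interferon production, was at 5.21 and 7.10 CPM alone and spanned them in co-culture, at 7.30 in M9 and 3.37 in M10. Irf1 was at 36.8 and 47.5 CPM alone, 47.4 (M9) and 41.4 CPM (M10) in co-culture and 71.0 CPM in the third library.

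Of the 5 nucleic acid sensors 4 were tested and 0 passed by edgeR, which gave 0 an unadjusted p under 0.05; DESeq2 and limma-voom also called 0. Ddx58 (RIG-I) and Eif2ak2, which read foreign RNA, had log2 fold changes of -0.51 ± 0.21 and -0.30 ± 0.18 (SE). Ifih1, which codes for the long-RNA sensor MDA5, was at 18.4 and 19.1 CPM alone beside 18.6 (M9) and 10.1 CPM (M10). Within the shared table only M10 stood apart, while the third co-culture library was above all of these at 28.1 CPM. Dhx58, a regulator of these sensors, was at 1.73 and 1.78 CPM against 1.16 and 0.80 CPM. Zbp1, a sensor of Z-form nucleic acid, was not tested: it had 9 counts in the organoids alone and 3 over M9 with M10, a ratio of 3.76 per total count with an exact binomial 95% interval from 0.938 to 21.6, which covers counting error only. It had 0 counts in the third library, which allows up to 0.051 CPM.

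The OAS enzymes make the second messenger that activates RNase L. Oas1a stood at 3.52 (M11), 4.15 (M12), 1.13 (M9) and 0.171 CPM (M10), with no overlap between the groups but a wide gap within the co-cultures (-2.56 ± 0.83 log2, SE; adjusted p = 0.197, edgeR). In M11, M12, M9 and M10, Oas3 stood at 0.587, 0.652, 1.25 and 0.229 CPM and the OAS-like Oasl1 at 6.17, 13.6, 10.7 and 5.00 CPM, so that M10 was lowest for both. Oasl2, a further OAS-like protein, was at 2.75 and 3.40 CPM alone beside 2.26 (M9) and 0.857 CPM (M10), and at 4.87 CPM in the third library. Oas2, with 7 (M11), 8 (M12), 22 (M9) and 5 (M10) counts, did not pass the filter, and its ratio of organoids alone to co-culture was 0.696 (95% counting interval 0.344 to 1.36).

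The IFIT proteins bind foreign RNA. Beside Ifit2, which fell, Ifit1 was at 2.39 and 2.06 CPM alone beside 2.79 (M9) and 0.60 CPM (M10). Ifit3 was at 6.76 and 6.17 CPM alone beside 3.41 (M9) and 2.06 CPM (M10) (-1.24 ± 0.40; adjusted p = 0.193, edgeR). Ifit3 and its near-identical neighbour Ifit3b carry estimated counts that are not whole, 184.27 and 60.73 in M11 for instance, yet their sum was whole to within 0.01 in each of the 4 libraries: 245, 246, 167 and 112 in M11, M12, M9 and M10. How reads were divided between these copies is therefore uncertain, and the summed level, 9.0 and 8.43 CPM alone against 4.95 and 3.20 CPM in co-culture, did not overlap between groups.

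The MX and GBP GTPases were scarce. Mx1, which in many laboratory mouse strains is defective (the labels name no strain), had 10 (M11), 12 (M12), 43 (M9) and 21 (M10) counts, higher in both co-cultures but with 4 counts in the third, and a log2 fold change of 1.26 ± 0.61 (adjusted p = 0.373, edgeR). Gbp3 had 20 and 21 counts alone, 7 in M9 and 0 in M10. Gbp2 and Gbp7, guanylate-binding proteins of the interferon gamma response, had log2 fold changes of -0.44 ± 0.69 and -0.57 ± 0.61 (SE), smaller than their standard errors. Mx2, the second MX GTPase, had 5 (M11), 10 (M12), 15 (M9) and 5 (M10) counts, with M9 highest and M10 level with M11.

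Within the ISG15 system, Isg15 itself was at 1.76 and 2.33 CPM alone beside 1.25 (M9) and 0.686 CPM (M10), without overlap (-1.08 ± 0.51; adjusted p = 0.356, edgeR), and at 0.50 CPM in the third co-culture library. Its protease Usp18 was at 0.661 and 0.823 CPM alone, 1.66 in M9 and 0.257 in M10. Herc6, its ligase in mice, was lower in both co-cultures at 3.15 and 1.63 CPM against 4.48 and 4.15. Trim25 was nearly level, at 121 and 120 CPM alone, 122 (M9) and 109 CPM (M10) in co-culture and 111 CPM in the third library.

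Rsad2, which codes for viperin, and Cmpk2, its neighbour that makes nucleotides for it, had log2 fold changes of -1.96 ± 0.61 and -1.53 ± 0.81 (SE; adjusted p = 0.183 and 0.414, edgeR). Rsad2 was at 1.87 and 2.26 CPM alone, 0.772 (M9) and 0.286 CPM (M10) in co-culture and 0.117 CPM in the third library, lower in all 3 co-cultures. Rtp4, a chaperone of receptors, was at 1.69 and 2.47 CPM alone, 1.54 (M9) and 0.229 CPM (M10), while the third library, at 3.42 CPM, was the highest of the 5. Bst2 was nearly level in the shared table (32.0, 38.8, 29.7 and 31.8 CPM in M11, M12, M9 and M10) and lower, at 13.8 CPM, in the third library. Ifi35 was at 19.9 and 22.4 CPM alone and spanned them in co-culture, at 24.2 (M9) and 14.7 CPM (M10). Xaf1, a factor that promotes cell death, was at 1.06 and 1.47 CPM alone with M9 between them at 1.31 and M10 below at 0.286.

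Parp9 and Dtx3l, which form an ADP-ribosylation and ubiquitin ligase complex, were at 22.2 and 24.5 CPM in M9 but at 11.1 and 13.2 CPM in M10, beside 13.8 and 12 CPM and 14.7 and 13.9 CPM in M11 and M12. Their estimated counts also summed to whole numbers in each library, and how reads were divided between them is uncertain. Parp14, a further ADP-ribosyltransferase, was at 18.5 and 20.3 CPM alone, 22.7 in M9 and 6.60 in M10. Cxcl10, a chemokine that draws T cells, had 88 (M11), 146 (M12), 97 (M9) and 10 (M10) counts and a log2 fold change of -1.38 ± 0.96 (adjusted p = 0.537, edgeR). M9 was close to M11, and M10 was far below all 3.

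**Figure D2:**
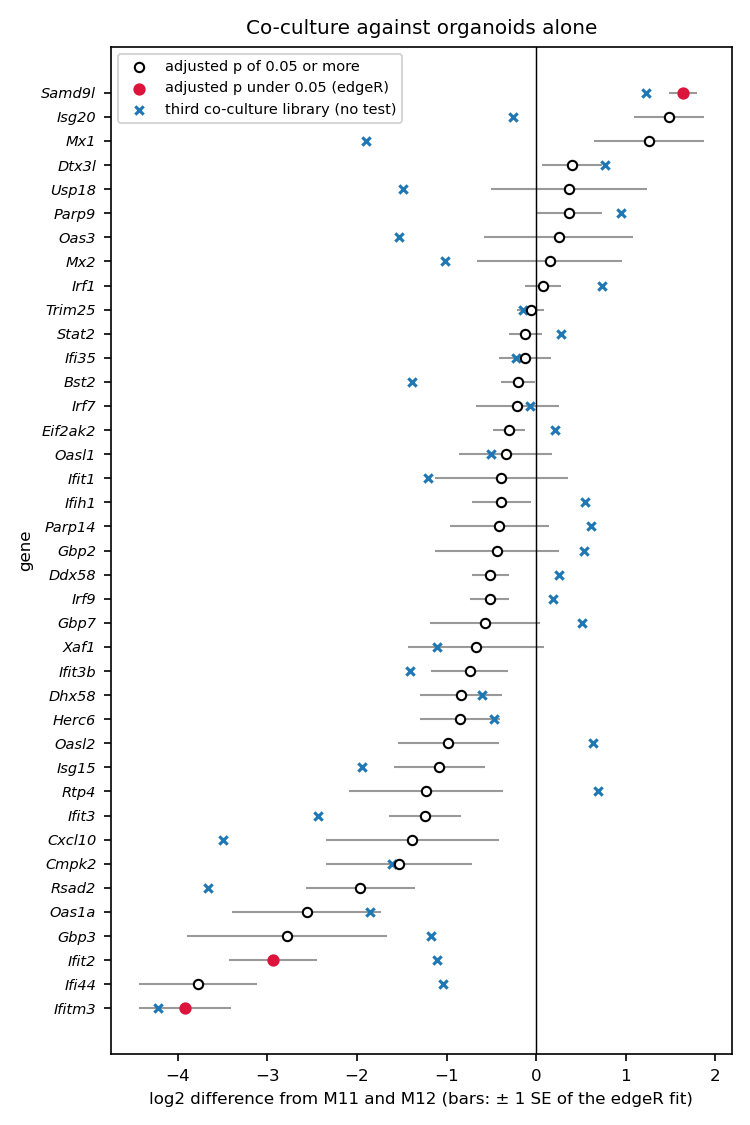
Log2 fold change of M9 and M10 against M11 and M12 for the 39 tested members (x axis; circles, with bars of 1 SE of the edgeR fit), red where the adjusted p was under 0.05, and the log2 difference of the third co-culture library from the same M11 and M12 (blue crosses, no test). Only Samd9l, Ifit2 and Ifitm3 are red, and the crosses of Mx1, Ifi44, Cxcl10, Rtp4, Usp18 and Ifit2, among others, lie far from their circles.

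The spread between the co-culture libraries was wide for these genes. M10 was below M9 for 35 of the 41 members, at least 2-fold for 19 and at least 2-fold above for 0 (7.93% of all tested genes were at least 2-fold above). Over the 39 tested members it was below M9 for 33 and at least 2-fold below for 18, beside 6.47% of all tested genes at least 2-fold below (49.9% below by any amount). The median difference of M10 from M9 over the tested members was -0.92 on the log2 scale, against 0.0 for all tested genes. Between M11 and M12, the libraries of organoids alone, the same median was 0.16, and 2 of 41 members differed by at least 2-fold: Zbp1 was lower in M12 (2.16% of all tested genes were) and Oasl1 higher (5.01% were). The lowest of the 4 libraries of the shared table was M10 for 33 of the 41 members, among them the untested Zbp1 and Oas2. The share of all genes with M10 lowest was not computed, so this count cannot be read as particular to the members. Setting M10 against M9 compares 2 libraries, not conditions, and has no test.

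Among members with counts in both libraries the gap was widest for Cxcl10, with 97 counts in M9 and 10 in M10, a ratio of 10.3 per total count (exact binomial 95% interval 5.35 to 22.1, counting error only). It was 6.88 (3.25 to 16.8) for Rtp4, 6.71 (2.81 to 19.4) for Oas1a and 6.59 (3.23 to 15.2) for Usp18. The better counted Parp14, at 763 against 231 counts, had a ratio of 3.5 (3.02 to 4.07). Going the other way was Isg20, at 0.524 (0.468 to 0.587), while Samd9l was at 0.939 (0.903 to 0.975), Irf9 at 0.981 (0.856 to 1.12) and Bst2 at 0.951 (0.873 to 1.04). So Samd9l and Isg20, the members with the largest positive fold changes, were not among those lower in M10.

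The less abundant members showed more of this gap. For the 22 tested members with a mean log2 CPM under 2 the median of M10 minus M9 was -1.32 and 15 were at least 2-fold lower in M10, beside 13.8% of all genes of that level; for the 17 members at 2 or more it was -0.28, with 3 at least 2-fold lower beside 3.14%. Members with the response element core in a window (17 tested) had a median of -0.88, those with a window and no core (15) -0.72 and those with no window (7) -1.30. M10 was the deepest library of the shared table, and its TMM factor was 0.976 where that of M9 was 0.995. Endothelial markers, most of them Egfl7, summed to 10.8 CPM in M9 and 10.4 in M10. Plasmacytoid dendritic markers summed to 22 and 25.4 CPM, nearly all of it Tcf4 at 21.1 and 25.4 CPM. Irf8 was lower in M10 (0.98 and 0.60 CPM), Ccr9 was higher (0.0297 and 0.114 CPM) and Siglech was at 0 in both. Macrophage markers summed to 36.2 and 57.4 CPM, most of it Csf1r at 31.0 and 52.3 CPM, while Lyz2 (0.119 and 0.0571 CPM) and Ptprc (0.119 and 0.0857 CPM) were lower in M10 and Adgre1 and Clec4f were at 0 in both. The part of these markers in the difference was not tested.

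**Figure D3:**
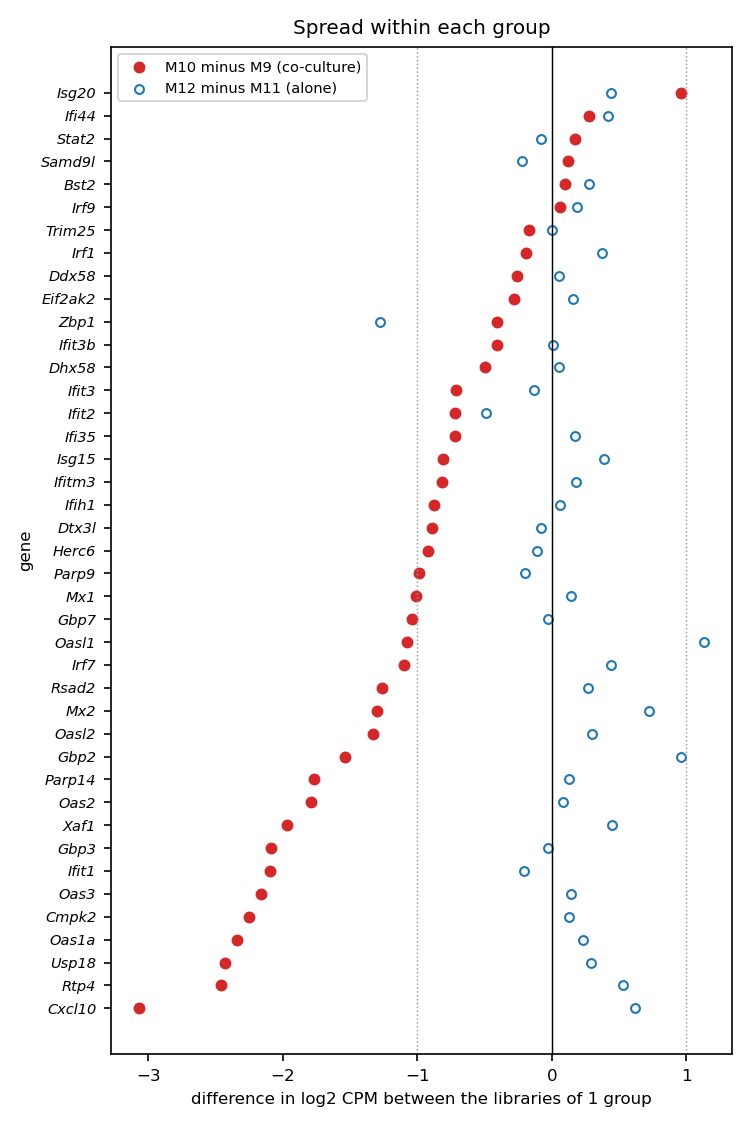
Difference in log2 CPM between the libraries of a group for the 41 members (x axis), M10 minus M9 for co-culture (red) and M12 minus M11 for organoids alone (open blue); dotted lines mark 2-fold. Red points lie left of 0 for 35 members and reach -3.07 for Cxcl10, while the blue points gather near 0.

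The calls moved with the library left out. Without M9 the log2 fold changes by edgeR were -3.82 for Cxcl10, -4.44 for Oas1a, -2.83 for Rsad2 and -1.64 for Ifit3. Without M10 they were -0.51, -1.76, -1.41 and -0.92 in the same order. Samd9l moved less, at 1.71 without M9 and 1.58 without M10, while Isg20 was at 1.89 and 0.92. Each of these fits rests on 1 co-culture library, assumed to vary like the organoids alone, so calls from them are not counted here.

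The third co-culture library, which has no replicate in its table and no test, held members on both sides of the organoids alone. Set against M11 and M12 (mean of their log2 CPM), 18 of the 39 tested members were at least 2-fold lower and 1, Samd9l, was at least 2-fold higher, beside 17.6% and 13.4% of all genes with a value in both tables. The median over the members was -0.50, against -0.02 for all. M11 and M12 serve in this comparison and in that of M9 and M10, and the third table follows another gene annotation, which cannot be told apart from the library itself. All 4 IFIT genes were at least 2-fold lower, from -1.11 for Ifit2 to -2.43 for Ifit3, as were Cxcl10 (-3.49), Rsad2 (-3.66), Ifitm3 (-4.22), Isg15 (-1.94) and Oas1a (-1.85). Reads of Ifit3 and Ifit3b (-1.41) may be divided otherwise in the third table, so their separate values are uncertain.

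Other members were level or higher there. Transcription factors lay between -0.07 (Irf7) and 0.73 (Irf1), and the sensors Ifih1, Ddx58 and Eif2ak2 at 0.55, 0.26 and 0.21. The sensor Dhx58, by contrast, was lower at -0.60, and the untested sensor Zbp1 had 0 counts. Parp9, Dtx3l and Parp14 were at 0.95, 0.77 and 0.61, Rtp4 at 0.69, Oasl2, an OAS-like protein, at 0.63 and Gbp2 at 0.53. The third library was thus low in the same direction as M10 for Cxcl10, Usp18 and Oas3 but high where M10 was low for Parp14, Rtp4 and Oasl2.

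**Figure D4:**
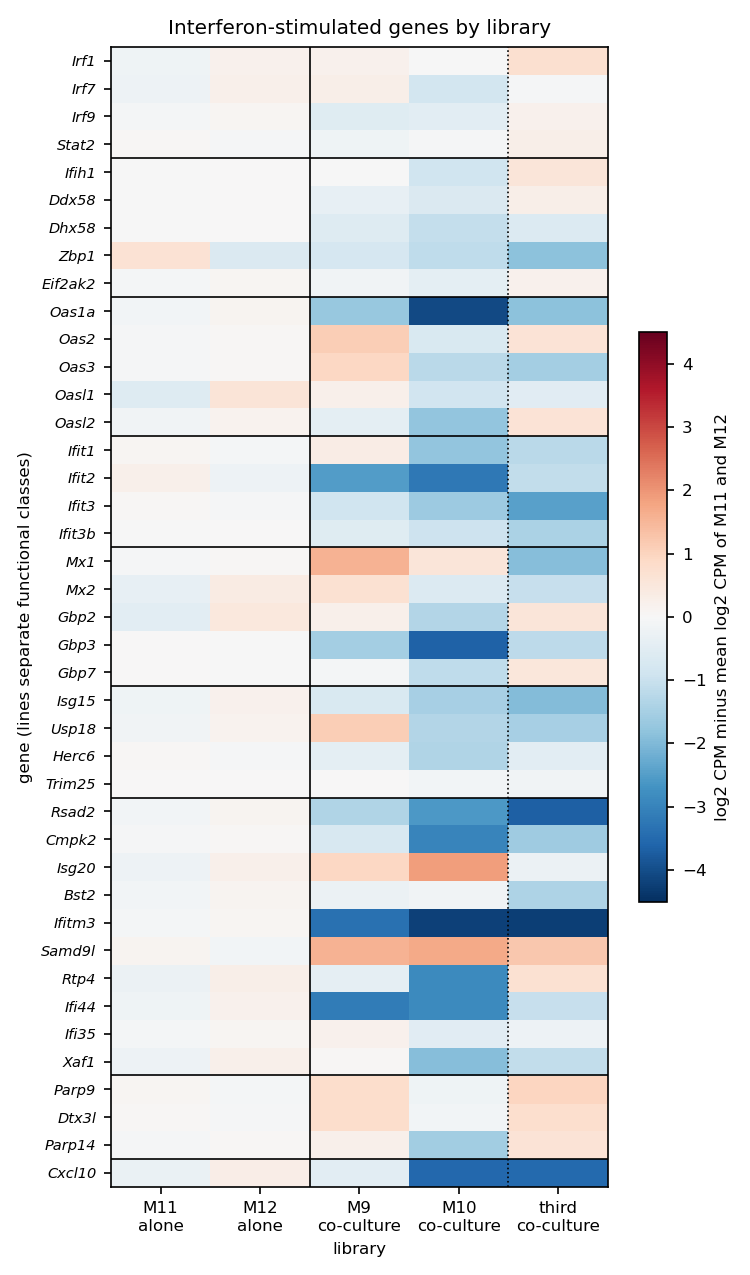
Log2 CPM of the 41 members (rows, grouped by function) in each of the 5 libraries (columns), as the difference from the mean of M11 and M12, red above and blue below. The columns of M11 and M12 are pale for most genes, M10 is bluer than M9, and the third library is blue for the IFIT genes, Rsad2, Ifitm3 and Cxcl10 but pale red for Ifih1, Ddx58, Eif2ak2 and the Parp9 complex.

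Other genes of the pathway, 104 from lists that hold no member, were read from the same fit. Of these 72 were tested, 2 fell and 0 rose by edgeR, beside 1.25% and 0.994% of all tested genes. At an unadjusted p under 0.05 there were 15 lower and 5 higher, beside 9.06% and 8.42% of all tested genes. DESeq2 called 7 lower and 2 higher (4.46% and 4.14% of its genes) and limma-voom 2 lower and 0 higher (1.15% and 0.642%). Their fold changes were positive for 35 and negative for 37, with a median of -0.01.

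Interferons themselves were hardly transcribed. Of 21 ligand genes, 20 had at most 5 counts over M11 with M12 and at most 1 over M9 with M10, among them Ifnb1 with 0 and 1, and Ifng, Ifnl2 and Ifnl3 with 0 in all 5 libraries. Ifnz, interferon zeta, had estimated counts that were not whole, which rounded to 24 over the organoids alone and 2 over M9 with M10, a ratio of 15.0 (95% counting interval 3.73 to 131), and 5 in the third library. By edgeR Ifnz did not pass (log2 fold change -3.7 ± 1.08, SE, adjusted p = 0.165). A gene with 0 counts could still reach 0.113 CPM in M11, the shallowest library.

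Of the 6 receptor subunits, Ifnar2, which binds type I interferon, fell: it was at 54.7 and 58.9 CPM alone beside 27.1 (M9) and 21.9 CPM (M10) (log2 fold change -1.21 ± 0.19, SE; adjusted p = 0.0416, edgeR). The third library, at 58.5 CPM, was level with the organoids alone. Its partner Ifnar1 was at 102 and 109 CPM against 91.1 and 75.3 CPM and did not pass (adjusted p = 0.359, edgeR). Ifnlr1, the epithelial receptor of type III interferon, was at 47.4 and 57.9 CPM against 24.1 and 40.4 CPM (adjusted p = 0.278, edgeR).

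By edgeR 0 of the 5 kinases and STATs passed (2 at an unadjusted p under 0.05) and 0 of 8 restraining genes (1 at that level); limma-voom called 0 and DESeq2 called Jak1 lower and Socs3 higher. Stat3, which carries cytokine signals such as that of interleukin 6, was at 104 and 139 CPM alone beside 112 (M9) and 126 CPM (M10). Jak1, the most abundant of the receptor kinases listed, was at 175 and 159 CPM alone beside 109 (M9) and 111 CPM (M10) (-0.60 ± 0.14 log2, SE, adjusted p = 0.106, edgeR). Of 11 tested genes that induce interferon 1 fell, Sting1, the adaptor of DNA sensing, from 29 and 25.4 CPM in M11 and M12 to 2.11 (M9) and 1.77 CPM (M10) (-3.81 ± 0.26; adjusted p = 0.0074, edgeR). It was at 6.10 CPM in the third library, below both libraries alone. Of this list DESeq2 also called Ikbke and Irf5 lower, beside 4.46% of its genes. By edgeR these were at -0.78 ± 0.20 and -2.23 ± 0.50 (SE, adjusted p = 0.125 and 0.0956). In the third library they were lower as well, at -1.09 and -2.45 on the log2 scale. Fold changes by edgeR were positive for 4 of the 11 genes. Sting1 was not called without M12 or with all 5 libraries, nor was Ifnar2, which was also lost without M11. Irf2bp2 and Irf2bp1, corepressors that bind IRF2 and the most abundant restraining genes, were at 287 and 198 CPM and at 78.5 and 72.7 CPM in the organoids alone.

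A further 51 interferon-stimulated genes outside the list gave 41 tested and 0 called by edgeR (10 at an unadjusted p under 0.05, 2 of them higher), 0 by limma-voom and 3 by DESeq2 (Ifi204 higher, Ifi27 and Slfn9 lower). Their median fold change was 0.06, where the members had -0.44. M10 was below M9 for 37 of the 41, with a median of -0.44 on the log2 scale. Epsti1, an interferon-induced epithelial gene, was at 6.18 CPM in M9 and 0 in M10, and Gbp6 at 1.22 and 0.0571 CPM. Tgtp1, Gbp4 and Gbp9, GTPases of the interferon gamma response (Gbp4 and Gbp9 overlap on chromosome 5 and may share reads), were highest in the third library, at 8.13, 4.65 and 31.3 CPM, against at most 1.51, 0.477 and 10.4 CPM in the others. Tgtp1 may share reads with Tgtp2, which had 2.58 estimated counts in M12, 0 in M11, M9 and M10 and 227 in the third library. The GTPases Ifi47 and Igtp were not highest there, at 1.27 and 2.68 CPM against 1.71 and 2.78 CPM in M12. The most abundant of these genes, Lgals3bp and Shisa5, were at 230 and 252 CPM and 217 and 220 CPM in the organoids alone and did not pass.

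Mesenchymal markers were lower in co-culture, while the macrophage and hepatocyte lists held tested genes of both directions. The 8 mesenchymal markers summed to 25.8 (M11) and 80.8 CPM (M12) alone and to 1.83 (M9), 2.76 (M10) and 8.24 CPM (the third library) in co-culture; 6 were tested, all with a negative fold change, and 2 fell, Col3a1 and Rgs5. All 8 were detected in the organoids alone. The collagens carried the difference between M11 and M12, with Col1a1 at 7.09 and 35.1 CPM. Rgs5, a pericyte marker, was at 9.80 (M11) and 8.51 CPM (M12) alone and at 1.13 (M9), 0.486 (M10) and 0.0833 CPM (the third library) in co-culture.

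Of the 10 macrophage markers 3 were tested and 1 fell, Lyz2, which codes for a lysozyme, with 240 (M11), 63.94 (M12), 4 (M9), 2 (M10) and 0 (the third library) estimated counts (log2 fold change -5.91 ± 0.95, SE; adjusted p = 0.0451, edgeR). The macrophage sum, most of it Csf1r, did not fall: it was 43.4 (M11), 36.1 (M12), 36.2 (M9), 57.4 (M10) and 87.1 CPM (the third library). Of the 6 hepatocyte markers 4 were tested and 1 fell, Alb, which codes for albumin, from 16.2 and 50.5 CPM to 0.148 (M9) and 0.257 CPM (M10) (-7.33 ± 0.76; adjusted p = 0.0186, edgeR), with 64.1 CPM in the third library. Fga, a fibrinogen chain, had 58 (M11), 732 (M12), 0 (M9) and 1 (M10) counts and did not pass (adjusted p = 0.0626, edgeR), while Ttr and Apoa1 had positive fold changes that did not pass. The hepatocyte sum was 57.7 (M11), 118 (M12), 55.7 (M9), 105 (M10) and 311 CPM (the third library). The part of the mesenchymal, macrophage and hepatocyte markers in the decreases of Ifitm3, Ifit2 and Sting1 was not tested.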

How the data were processed

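Libraries of total RNA were stranded and depleted of ribosomal RNA by the kit the labels' protocols name. The authors deposited estimated counts per Ensembl gene for 4 libraries and whole-number read counts per RefSeq gene for the third co-culture library, per the file headers, none normalized. As tools the submitters' processing notes list StringTie 2.1.3b, Bowtie2 2.3.4.1, HISAT2 2.1.0 and Trimmomatic 0.38, and as builds mm10 and GRCh37, without roles. The shared table's columns give the group (Con or mLiEC) and a library number. Counter, strand setting and annotation: not given in the sources used here. Reads of overlapping or antisense genes are therefore uncertain.

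The 73925 rows were reduced to 52029 genes (repeats were identical), estimated counts were rounded, and the third library was joined by symbol (32518 genes, 98.4% of its counts). The fit used edgeR 4.0.16 in R 4.3.3: filterByExpr, TMM, robust quasi-likelihood, Benjamini-Hochberg at 0.05 over all 15899 genes; SE is the absolute log2 fold change over the square root of F. Log2 CPM have a prior count of 2. The step was tested on simulated counts. Gene positions are from GENCODE M21 (GRCm38) by Ensembl identifier, and promoter windows from RefSeq (GRCm38.p6).

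The members and lists were chosen with earlier results of these data known. Values by library are given for called members, the 8 smallest p, the 6 highest per exon kilobase and 11 fixed genes, with others by class; from pathway lists, called genes or the most abundant. Others named there were chosen after their values were seen. Alternatives were other scalings, filters, DESeq2 1.42.0, limma-voom (limma 3.58.1), each library left out and all 5 libraries.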

Additional observations from a re-analysis of the deposited data

How the results depend on the processing

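Samd9l, Ifitm3 and Ifit2 kept their directions in all 12 alternative fits, and other scalings or a CPM filter moved no count by more than 1.5 times. DESeq2 called 1314 genes, 2 members higher and 4 lower, and of the pathway genes 2 higher and 7 lower; without a low-count filter edgeR called 1404, with 2 and 4 members and 2 and 8 pathway genes. Limma-voom called 1 member lower. With all 5 libraries edgeR called 2 genes, 0 members in either direction and 0 pathway genes lower. At an unadjusted p under 0.05 that fit had 1 member higher and 5 lower of 40 tested, beside 1432 of all genes. Leaving out each library of the shared table in turn gave 0 to 2619 genes, 0 to 2 members higher, 0 to 13 lower, 0 to 4 pathway genes higher and 0 to 15 lower, and a member median from -1.26 to -0.13. The third co-culture library had 2 members at least 2-fold higher and 15 to 18 lower without M11 or M12. Fold changes were followed across the fits only for tested members chosen by p-value, by level per length or as fixed genes. Among these, signs of uncalled members turned when a library was left out for Irf1 (-0.09 to 0.27), Irf7 (-0.86 to 0.25), Ifit1 (-1.87 to 0.33), Ifi35 (-0.51 to 0.20) and Trim25 (0.03 without M10). The sign of Stat2 turned with all 5 libraries (0.03). The cause was not tested. Other uncalled members were not followed in this way, so further signs may have turned. No paired analysis was possible because the columns of the shared table carry no replicate number of the titles. With 2 libraries a group and members at a few counts, small changes could not be detected.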
